A study of Mus musculus with 13 samples.

Results

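The comparison set 4 lung libraries from bleomycin-treated mice of the second batch (bleomycin libraries 1 to 4) against 5 lung libraries from saline-treated mice of the first batch (saline libraries 1 to 5). The libraries were chosen by their treatment and batch labels, and they are 9 of the 13 libraries of the series. The other 4 libraries, bleomycin libraries 5 to 8, came from bleomycin-treated mice of the first batch and were compared with the same 5 saline libraries. All mice were male C57Bl/6 animals 7 to 8 weeks old, and every lung was labelled day 21. Each library was made from 8 ng of total RNA extracted from a coronal section, 10 µm thick, of a formalin-fixed, paraffin-embedded lung, with a SMARTer total RNA kit for small inputs that keeps the strand. The second batch held no saline library, so in this comparison bleomycin and batch cannot be told apart. The dose, the route and whether each library is a separate animal were not given in the sources used here, and the p-values therefore measure only the spread between these libraries, which may be technical.

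Bleomycin is an antitumour antibiotic that breaks DNA, and in the mouse lung it injures the alveolar epithelium, draws in leukocytes and is followed by scarring, which makes it a standard model of pulmonary fibrosis. In the healthy alveolus, type 1 cells form the thin gas-exchange surface and type 2 cells secrete surfactant and replace lost type 1 cells, partly through a transitional state rich in keratins. During scarring, fibroblasts deposit collagens, fibronectin and elastic fibres, while macrophages and lymphocytes accumulate. The RNA came from whole sections, so fewer cells of a type and less RNA per cell cannot be told apart in any of the values that follow.

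Total gene counts ran from 6337147 to 12982422 in bleomycin libraries 1 to 4, from 21727502 to 28885129 in bleomycin libraries 5 to 8 and from 9527580 to 26043735 in saline, so the second batch was the shallowest group. Levels are given as CPM, counts per 1000000 of the library's scaled total, in the order of the library numbers. The tissue label was checked on 2 defining lung genes: Sftpc, the type 2 cell surfactant protein, and Scgb1a1, the secretoglobin of airway club cells, were at 979 CPM or more in all 13 libraries. The title of bleomycin library 8 calls it a control, while its treatment label and library name call it bleomycin, and in Col1a1, Fn1 and Spp1 its values of 3982, 8202 and 911 CPM were far above the highest saline values of 324, 450 and 38.1 CPM. Where leaving out that library changed a call described here, its adjusted p without the library is given. The share of 18S rRNA was 13.6% to 17.7% in the second batch and 5.30% to 13.5% in saline. It was 4.16%, 3.91% and 7.13% in bleomycin libraries 5, 6 and 7, below every second-batch library, and 21.3% in library 8, above all others. Genes of other tissues were uneven in single libraries: summed heart muscle genes ran from 246 to 7608 CPM in the second batch and from 1659 to 9890 CPM in saline, and Tg, the thyroid hormone precursor, was at 1551 CPM in bleomycin library 3 and 688 CPM in saline library 1 but at 3.02 CPM or less in the other 11. None of the 19 heart and 18 skeletal muscle genes tested passed the test in either batch.

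The first question was how many genes differed between the second batch and saline, and which of these differences also stood in the first batch. Of 20468 genes tested, 3204 were higher in bleomycin libraries 1 to 4 than in saline, which is 15.7% of the tested genes, and 2707 were lower, which is 13.2% (edgeR quasi-likelihood test, Benjamini-Hochberg adjusted p under 0.05). In bleomycin libraries 5 to 8 against the same saline libraries, 3586 genes (17.5%) were higher and 2733 (13.4%) lower. The counts of gene lists given below are to be read against these shares. The median log2 change over all tested genes was -0.01 in the second batch and 0.03 in the first. At least 2-fold changes were seen for 1313 of the higher and 1257 of the lower genes of the second batch.

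Of the 5911 genes called in the second batch and the 6319 called in the first, 4175 were called in both in the same direction, 2489 higher and 1686 lower. Both comparisons use the same saline libraries, so this count is no independent agreement between the batches. To ask which changes appeared in one batch, the bleomycin libraries of the 2 batches were compared directly. That test called 112 genes higher in the second batch (0.547% of those tested) and 231 lower (1.13%). Counts below of genes of a list or type that differ between the batches are to be read against these shares. By requiring a difference between the bleomycin batches as well, 109 genes were changed against saline in the second batch only, 18 higher and 91 lower, and 108 were changed in the first batch only, 57 higher and 51 lower. A further 26 genes changed in opposite directions. The remaining 1601 genes called in the second batch and not in the first, and the 2010 called in the first and not in the second, showed no difference between the bleomycin batches that passed the test, and they are not shown to belong to one batch.

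The count of genes that differed between the bleomycin batches depended on single libraries. Without bleomycin library 8 it was 1093 (411 higher and 682 lower in the second batch), with 456 genes changed in the second batch only, 320 in the first batch only and 3588 shared. Without bleomycin library 1 it was 534, with 234 genes changed in the first batch only, and it was 165, 148 and 183 without bleomycin library 2, 3 and 4 and 187 and 197 without library 6 and 7. Leaving out each library in turn thus gave 148 to 1093, with 40 to 456 genes changed in the second batch only and 39 to 320 in the first batch only. By limma-voom 106 genes differed, 79 higher and 27 lower in the second batch, so the split between the directions turned. Of the 343 genes called with all libraries, 336 (98%) were also called without library 8, but 142 (41.4%) without library 3, 155 (45.2%) without library 2 and 103 (30%) by limma-voom. When only the 2 bleomycin groups were fitted, 142 (41.4%) kept their call, and the differences of Krt19, Agrn, Por, Npas2, Dbp, Klf6, Errfi1 and Cop1 lost it (edgeR adjusted p 0.0504 to 0.0802). By limma-voom those of Ager, Krt19, Npas2, Klf4, Adm, Apold1 and Rps27rt did not pass (limma-voom adjusted p 0.0613 to 0.238).

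**Figure D1:**
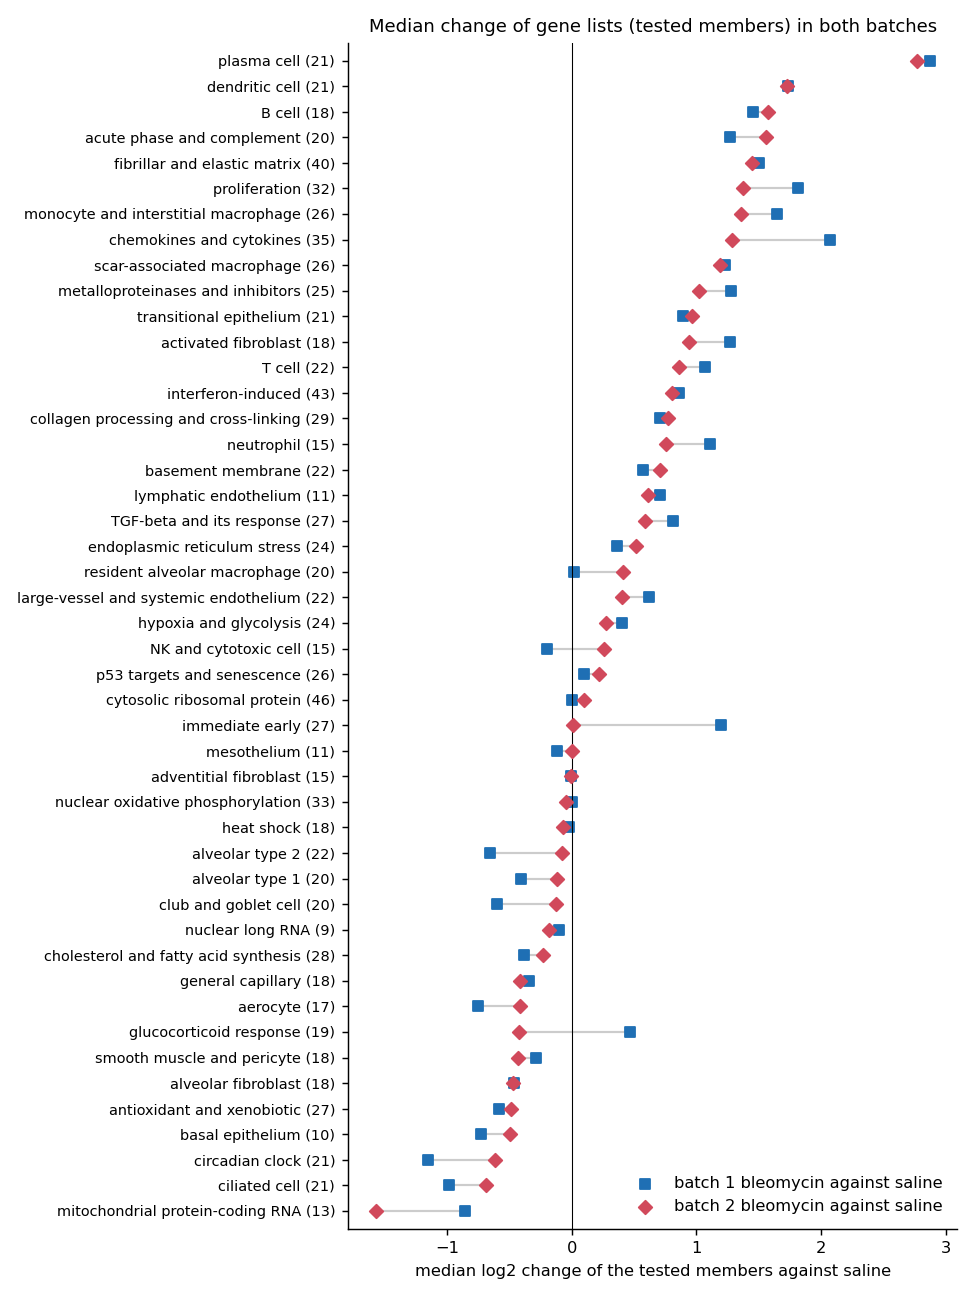
Median log2 change against saline of the tested members of each gene list (number tested in brackets), with diamonds for the second batch, squares for the first and a grey line joining them; both use the same 5 saline libraries. Plasma cell, dendritic cell, matrix and proliferation genes lie to the right of 0 in both batches, while the immediate early list lies at 0.01 in the second batch and 1.2 in the first, and the glucocorticoid list at -0.42 and 0.47.

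Genes of the interstitial scar were higher in both batches. Of 40 fibrillar and elastic matrix genes, 33 rose and none fell in the second batch (median log2 change 1.44), against 34 and none in the first (median 1.51). None differed between the bleomycin batches, where only 0.547% of all tested genes were called higher and 1.13% lower in the second batch. Col1a1, which encodes the main chain of type I collagen, was at 4061, 1989.7, 1530.1 and 1903 CPM in bleomycin libraries 1 to 4 and at 279, 262, 298, 324 and 215 CPM in saline. Against saline Col1a1 changed by 3.10 on the log2 scale (SE 0.40, edgeR adjusted p = 2.58e-04). The lowest library of the second batch was thus several times above the highest saline library, and bleomycin library 1 stood above the other 3. Fn1, the fibronectin gene, was at 8078, 3204, 2502 and 3444 CPM against 369, 382, 450.1, 431 and 399.6 CPM in saline (log2 change 3.41, SE 0.46, edgeR adjusted p = 3.31e-04). Its first-batch change was 3.60, and the difference between the bleomycin batches was -0.19 with SE 0.45. Cthrc1, a secreted protein made by collagen-producing fibroblasts of scarred lung, was at 18.6, 11.4, 9.13 and 13.2 CPM against 0.584 to 1.62 CPM in saline. That is a change of 3.53 on the log2 scale (SE 0.38, edgeR adjusted p = 1.21e-05). Eln, the elastin gene, rose by 2.97 on the log2 scale in the second batch and by 3.44 in the first.

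Spp1, which encodes osteopontin, a secreted phosphoprotein of scar macrophages, was at 838, 347, 404 and 448 CPM in the second batch and 20.5 to 38.1 CPM in saline (log2 change 4.14, SE 0.41, edgeR adjusted p = 4.47e-05). In Spp1, Col1a1, Fn1 and Cthrc1 the groups did not overlap. Ltbp2, a latent TGF-beta binding protein of elastic fibres, rose by 3.11 (SE 0.29). Not every gene tied to scarring moved by so much. Postn, the periostin gene, was at 353, 289.7, 235 and 238 CPM against 180.0 to 205 CPM in saline (log2 change 0.53, SE 0.14, edgeR adjusted p = 0.00926), with no overlap. Its rise in the first batch (log2 change 0.50, SE 0.14, edgeR adjusted p = 0.0122) lost its call without bleomycin library 8 (edgeR adjusted p = 0.0725). Acta2, the smooth muscle actin used as a myofibroblast marker, was lower in the second batch, at 169, 189, 205 and 185 CPM against 281, 290.1, 273, 334 and 308 CPM in saline. Acta2 changed against saline by -0.67 on the log2 scale (SE 0.15, edgeR adjusted p = 0.00376). Every library of the second batch lay below every saline library in Acta2, whereas in the first batch libraries 6 and 8 lay within the saline range and the change did not pass (log2 change -0.32, SE 0.15, edgeR adjusted p = 0.117), though it did without library 8 (edgeR adjusted p = 0.0194). Ccn2, a matricellular TGF-beta target, gave log2 change 0.36, SE 0.36, edgeR adjusted p = 0.50 in the second batch and overlapped saline. In the first batch Ccn2 rose (log2 change 1.03, edgeR adjusted p = 0.0481), a call lost in 11 of 13 omissions, among them library 8 (edgeR adjusted p = 0.164). Its difference between the bleomycin batches did not pass (log2 difference -0.67, edgeR adjusted p = 0.457).

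Enzymes that cut or shape matrix followed. Of 25 metalloproteinases and inhibitors tested, 13 rose and 2 fell in the second batch (median 1.02), against 15 and 2 in the first. Mmp2, the gelatinase A of fibroblasts, was at 446, 353, 392 and 399 CPM in the second batch and 77.3, 72.7, 71.1, 74.7 and 69.9 CPM in saline (log2 change 2.44, SE 0.14, edgeR adjusted p = 5.35e-08), a narrow spread within each group. Its difference between the bleomycin batches (log2 difference 0.38, SE 0.14, edgeR adjusted p = 0.206) passed without library 8 (edgeR adjusted p = 0.00432). Mmp12, the macrophage elastase, was at 193, 41.8, 25.4 and 49.9 CPM against 0 to 1.83 CPM in saline, with library 1 far above the rest (log2 change 6.06, SE 0.82, edgeR adjusted p = 4.19e-04). Timp1, an inhibitor of these proteases, showed the same uneven spread, at 55.3, 13.3, 9.30 and 13.8 CPM against 1.31 to 2.26 CPM. Against saline Timp1 changed by 3.71 on the log2 scale (SE 0.65, edgeR adjusted p = 0.00166). Cemip, which breaks down hyaluronan, was at 75.9, 23.4, 17.5 and 34.1 CPM against 0.365 to 2.7 CPM. In all 4 of these genes every library of the second batch exceeded every saline library. Of 29 collagen processing and cross-linking genes, 20 rose and 2 fell, and of 27 TGF-beta genes, 18 rose and 2 fell. Among the latter, Tgfbr3, the co-receptor betaglycan, was lower with little spread, at 106, 109, 111 and 106 CPM against 211, 207, 209, 213 and 209 CPM (log2 change -0.96, SE 0.10, edgeR adjusted p = 6.75e-06).

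Leukocyte genes rose in both batches, most of all those of antibody-secreting cells. Of 21 plasma cell genes, 16 rose in each batch and none fell (median 2.77 in the second batch and 2.87 in the first). Over the alternative settings 7 to 16 were called in the second batch, 12 by limma-voom. Igha, the constant region of IgA, was at 111, 191, 310.3 and 188 CPM in the second batch, 84.3, 36.1, 60.4 and 84.3 CPM in the first and 7.16, 2.55, 7.08, 3.52 and 10.3 CPM in saline (log2 change 5.00, SE 0.46, edgeR adjusted p = 2.90e-05). Each library of the second batch exceeded every library of the first in Igha, but the difference between the bleomycin batches did not pass the test (log2 difference 1.60, SE 0.42, edgeR adjusted p = 0.0997), though it did by DESeq2 and limma-voom. Pou2af1, a B-lineage coactivator, was at 16.4, 15.4, 10.4 and 16.4 CPM against 2.01 to 4.39 CPM in saline. Of 18 B cell genes, 15 rose, and of 22 T cell genes, 12 rose, with none lower in either list. The alternative settings called 6 to 17 B cell and 7 to 14 T cell genes. Cd4, the coreceptor of helper T cells, was at 11.3, 13.6, 14.6 and 15.2 CPM against 2.77 to 5.24 CPM. That is a change of 1.87 on the log2 scale (SE 0.22, edgeR adjusted p = 2.31e-05). Of 15 NK and cytotoxic cell genes, 1 rose and 1 fell.

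Most myeloid lists rose, with exceptions. Of 26 monocyte and interstitial macrophage genes 19 rose in the second batch, of 26 scar-associated macrophage genes 15 rose and 1 fell, and of 21 dendritic cell genes 18 rose. The alternative settings called 13 to 20, 16 to 17 and 16 to 18 genes of these lists. Of 15 neutrophil genes, 2 rose in the second batch (3 rose and 1 fell without bleomycin library 1) and 7 in the first, where 15.7% and 17.5% of all tested genes were called higher. Of 20 resident alveolar macrophage genes, 7 rose and 5 fell in the second batch, against 5 and 4 in the first. Over all tested genes, 13.2% were called lower in the second batch and 13.4% in the first. Ms4a7, a membrane protein of monocyte-derived macrophages, was at 21.8, 15.8, 24.3 and 24.0 CPM against 3.28, 3.71, 3.28, 2.14 and 2.65 CPM in saline (log2 change 2.83, SE 0.19, edgeR adjusted p = 1.99e-07). C1qc, a chain of complement C1q made by macrophages, gave 2.56, and Itgax, the integrin CD11c of dendritic cells and alveolar macrophages, gave 2.22. H2-Ab1, an MHC class II chain, was at 358, 454, 432 and 469 CPM against 110.3, 114, 114, 93.0 and 99.3 CPM. H2-Ab1 changed against saline by 2.01 on the log2 scale (SE 0.14, edgeR adjusted p = 1.99e-07). In each of these 4 genes the second batch and saline did not overlap. Of 10 blood and erythroid genes tested, a list that holds red cell and platelet genes, 5 rose and 1 fell in the second batch. By limma-voom 3 passed. The summed level of the list overlapped saline, at 74.9 to 294 CPM in the second batch against 62.8 to 90.4 CPM. The part of blood in the leukocyte changes was not tested. Without bleomycin library 2 the count was 3 risen and none fallen.

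Response programmes rose as well. Of 43 interferon-induced genes 29 rose and none fell in the second batch, and Irf7, an interferon-induced transcription factor, gave 1.66 (SE 0.19). Rsad2, the antiviral protein viperin, was at 16.6, 10.9, 9.97 and 9.08 CPM against 1.62 to 3.02 CPM in saline. Of 20 acute phase and complement genes, 17 rose. Lcn2, an iron-binding protein of injured epithelium and neutrophils, was at 138, 128, 181 and 159 CPM against 30.5, 27.4, 32.1, 19.1 and 21.8 CPM (log2 change 2.53, SE 0.16, edgeR adjusted p = 1.99e-07). Of 35 chemokines and cytokines, 22 rose in the second batch and 25 rose and 1 fell in the first; Cxcl9, an interferon-gamma-induced chemokine for T cells, gave 3.61. By limma-voom 10 of the 35 passed in the second batch. Of 32 proliferation genes, 24 rose in the second batch and 29 in the first. Over the alternative settings 15 to 26 were called in the second batch, 16 by limma-voom. Cdk1, the mitotic kinase, was at 14.1, 10.2, 3.55 and 3.66 CPM against 1.18 to 1.28 CPM in saline (log2 change 2.67, SE 0.37, edgeR adjusted p = 9.17e-05), higher in libraries 1 and 2 than in 3 and 4.

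Single genes of alveolar type 1 cells, airway cells and capillaries were lower in both batches, but members of the type 1 list went both ways. Of 20 type 1 genes, 3 rose and 6 fell in the second batch (median -0.12), against 2 and 10 in the first (median -0.41). The shares over all tested genes were 15.7% higher and 13.2% lower in the second batch, and 17.5% and 13.4% in the first. Hopx, a transcriptional cofactor of type 1 cells, was at 129, 137, 145 and 123 CPM in the second batch and 314, 299, 350.3, 301 and 308 CPM in saline. Against saline Hopx changed by -1.23 on the log2 scale (SE 0.14, edgeR adjusted p = 1.87e-05). Cav1, the caveolin of type 1 and endothelial cells, was at 193, 226, 274 and 221 CPM against 599.7, 625, 619, 565 and 531 CPM (log2 change -1.36, SE 0.19, edgeR adjusted p = 1.19e-04). Epas1, the hypoxia-inducible factor HIF-2 alpha that marks lung endothelium, was at 1758, 1916, 2145 and 1943 CPM against 3736, 3651, 3908, 3070.2 and 3203 CPM. That is a change of -0.86 on the log2 scale (SE 0.10, edgeR adjusted p = 2.85e-05). These 3 genes did not overlap with saline in either batch. Ednrb, an endothelin receptor that marks aerocytes (large capillary cells of the alveolus), gave -1.85 (SE 0.21). Of 18 general capillary genes 9 fell and none rose, and of 17 aerocyte genes 7 fell and 1 rose.

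Of 20 club and goblet cell genes, 4 rose and 7 fell in the second batch (median -0.13), against 2 and 8 in the first (median -0.60). Scgb1a1 was at 1997, 2778, 5205 and 2866 CPM in the second batch and 7241, 10999, 7939.5, 5746 and 6637 CPM in saline (log2 change -1.26, SE 0.27, edgeR adjusted p = 0.00370), with library 3 closest to the saline range and no overlap. Of 21 ciliated cell genes, 14 fell in the second batch and 18 in the first, and none rose. The second-batch count fell to 9 without bleomycin library 2 or 4 and to 8 without saline library 5. Dnah12, a dynein of motile cilia, was at 46.3, 66.2, 102 and 66.0 CPM against 109 to 183 CPM in saline (log2 change -1.05, SE 0.20, edgeR adjusted p = 0.00183). In the opposite direction, Slc26a4, the anion exchanger pendrin of airway epithelium, was at 8.97, 9.59, 14.2 and 9.08 CPM against 0 to 0.852 CPM (log2 change 4.47, SE 0.52, edgeR adjusted p = 3.42e-05), and Prox1, the master regulator of lymphatic endothelium, gave 1.73 (SE 0.17).

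**Figure D2:**
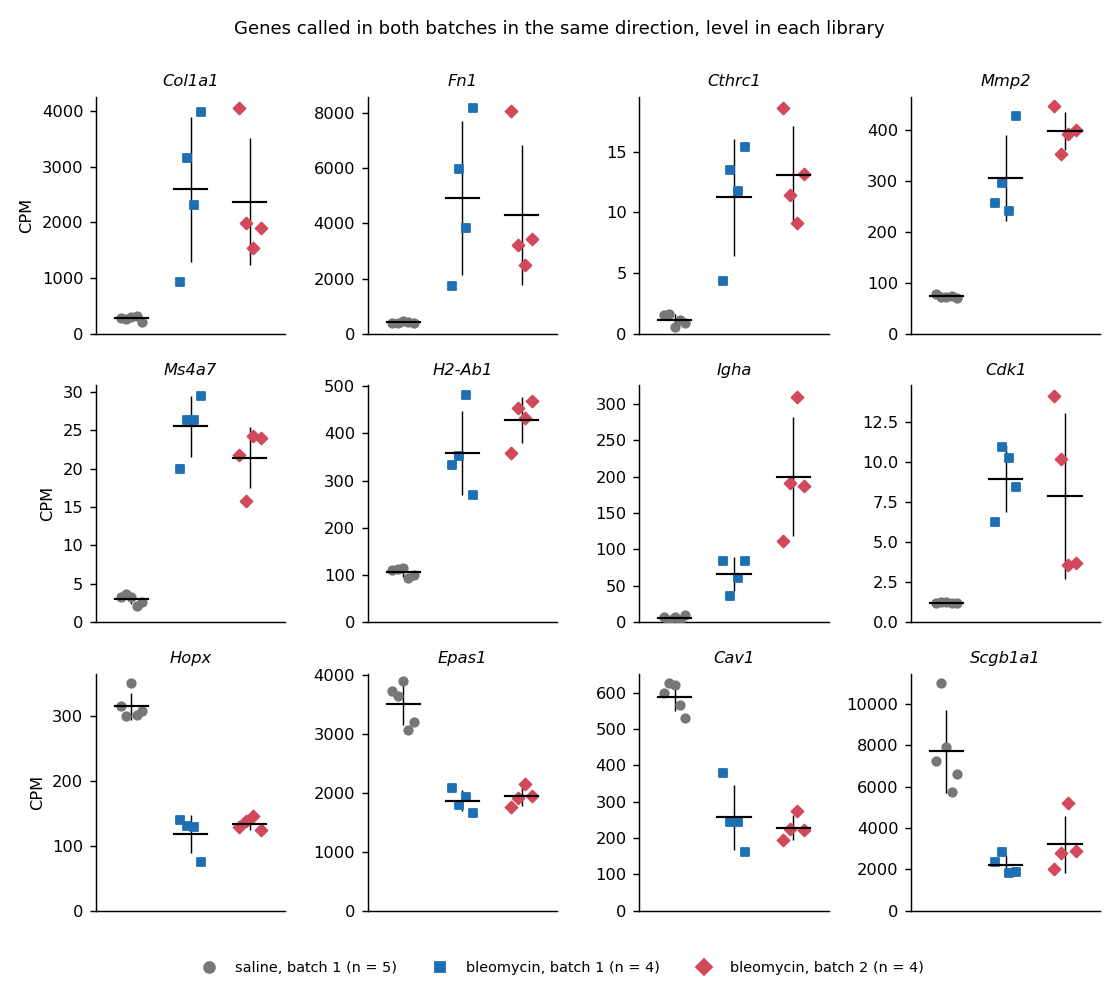
CPM in each library (vertical axes from 0) for 12 genes called in both batches in the same direction, with saline, first-batch bleomycin and second-batch bleomycin side by side and a bar at each group mean. Col1a1, Fn1, Cthrc1, Mmp2, Ms4a7, H2-Ab1, Igha and Cdk1 lie above saline in the second batch, and Hopx, Epas1, Cav1 and Scgb1a1 lie below it.

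Between the bleomycin batches 1 of 20 type 1, 1 of 20 club and goblet, 1 of 21 transitional and none of the type 2 and ciliated genes differed. Of all tested genes, 0.547% were called higher and 1.13% lower in the second batch than in the first. The club and goblet count was 5 and the ciliated count 4 without bleomycin library 1. The transitional count was 4 without library 8. Of 22 alveolar type 2 genes, 4 rose and 1 fell in the second batch (median -0.08), whereas none rose and 7 fell in the first (median -0.65). Of all tested genes, 15.7% rose and 13.2% fell in the second batch, and 17.5% and 13.4% in the first. The second-batch median of the type 2 list was 0.10 without bleomycin library 1. No single type 2 gene differed between the bleomycin batches in the test used here, and over the alternative settings 0 to 6 did, 6 of them without bleomycin library 1. The second-batch count of 5 was 3 without bleomycin library 3 or 4 or saline library 2, 4 or 5. Sftpc was at 1601, 2858, 4082 and 3135 CPM in the second batch, 2269, 979, 1369 and 1023 CPM in the first and 3340.3, 4366, 3801, 2926 and 3072 CPM in saline. The second batch overlapped saline (log2 change -0.26, SE 0.28, edgeR adjusted p = 0.535), and its difference from the first batch did not pass (log2 difference 1.05, SE 0.30, edgeR adjusted p = 0.116). That difference passed by DESeq2, without bleomycin library 1, which had the lowest Sftpc of its batch, and without library 5, which had the highest of its own (edgeR adjusted p down to 0.0269). Sftpd, a surfactant collectin, was at 219, 322, 434 and 379 CPM in the second batch against 174, 238, 227, 186 and 167 CPM in saline and rose (log2 change 0.77, SE 0.18, edgeR adjusted p = 0.00480), with library 1 within the saline range. Ager, a receptor abundant on type 1 cells, was at 495, 654, 731 and 641 CPM in the second batch, 445, 324, 413 and 345 CPM in the first and 537, 697, 664, 500.1 and 425 CPM in saline. Its difference between the bleomycin batches (log2 difference 0.72, SE 0.16, edgeR adjusted p = 0.0291) lost its call without library 2, 3, 4, 6 or 7 (edgeR adjusted p up to 0.126).

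Keratins of the transitional state rose, and Krt19 was higher in the second batch than in the first. Of 21 transitional epithelium genes 17 rose in the second batch and 16 in the first, with none lower. Krt8 was at 153, 138, 144 and 119 CPM in the second batch, 79.6, 77.8, 89.3 and 131 CPM in the first and 61.8, 52.8, 54.2, 46.6 and 60.8 CPM in saline. Krt8 changed against saline by 1.33 on the log2 scale (SE 0.14, edgeR adjusted p = 1.00e-05). Library 8 reached the second-batch range in Krt8, and the difference between the bleomycin batches (log2 difference 0.55, SE 0.15, edgeR adjusted p = 0.0745) passed by DESeq2 and without library 8 (edgeR adjusted p = 0.00255). Krt19 was at 104, 117, 129 and 104 CPM in the second batch and 55.1, 66.5, 68.2 and 95.1 CPM in the first. It rose in the second batch (log2 change 0.91, SE 0.15, edgeR adjusted p = 4.27e-04) and not in the first (log2 change 0.24, SE 0.15, edgeR adjusted p = 0.253), and the difference (log2 difference 0.67, SE 0.16, edgeR adjusted p = 0.0452) lost its call without library 2, 3, 4, 5, 6, 7, saline 3 or saline 5 (edgeR adjusted p up to 0.146).

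Of 38 protein-coding genes changed in the second batch only, 12 were higher and 26 lower, and with protein-coding genes only in the fit the set was 21 genes, 6 higher and 15 lower. Bcam, a laminin receptor of epithelial and endothelial cells, was at 235, 298, 299 and 275 CPM in the second batch, 194, 173, 169 and 173 CPM in the first and 185, 189, 189, 165 and 172 CPM in saline. The second batch lay above both other groups, which overlapped with each other (log2 change 0.62, SE 0.09, edgeR adjusted p = 1.10e-04, and for the difference from the first batch log2 difference 0.64, SE 0.09, edgeR adjusted p = 0.00285). Ddr1, a collagen-binding receptor kinase of epithelium, was at 63.8, 71.7, 69.3 and 57.7 CPM in the second batch, 40.3, 46.4, 44.5 and 50.6 CPM in the first and 43.7, 35.7, 38.6, 39.2 and 41.7 CPM in saline. For Ddr1 the difference between the bleomycin batches was 0.53 on the log2 scale (SE 0.10, edgeR adjusted p = 0.0139). That call was lost without library 2 or 3 (edgeR adjusted p up to 0.0698). Nbl1, a secreted BMP antagonist, was at 135, 134, 139 and 142 CPM in the second batch and 91.3, 87.0, 98.1 and 109 CPM in the first, with saline at 105 to 123 CPM. The difference between the batches (log2 difference 0.51, SE 0.09, edgeR adjusted p = 0.00629) held without each library in turn, while the rise against saline (edgeR adjusted p = 0.0110) was lost without library 3 (edgeR adjusted p = 0.0601).

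Most basement membrane genes rose in each batch. Of 22 tested, 17 rose in the second batch and 14 in the first. Higher in the second batch than in the first were 2, where 0.547% of all tested genes were called higher. Lamb3, a laminin chain of epithelial basement membrane, was at 97.0, 116, 105 and 103 CPM in the second batch, 65.3, 76.7, 68.3 and 84.6 CPM in the first and 46.1, 42.1, 48.9, 41.7 and 41.9 CPM in saline. All 3 groups were apart, and the difference between the bleomycin batches (log2 difference 0.51, SE 0.10, edgeR adjusted p = 0.0131) was lost without library 2 or 7 (edgeR adjusted p up to 0.0649). Agrn, a basement membrane heparan sulphate proteoglycan, was at 355, 343, 366 and 355 CPM in the second batch and 282, 268, 260.1 and 267 CPM in the first (log2 difference 0.40, SE 0.08, edgeR adjusted p = 0.0143), a call lost without library 3, 4 or 7 (edgeR adjusted p up to 0.0806).

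Some genes did not pass against saline in the second batch and were lower in the first. Ephx1, the microsomal epoxide hydrolase of club and type 2 cells, was at 147, 191, 179 and 182 CPM in the second batch, 90.9, 66.1, 79.7 and 124 CPM in the first and 157, 121, 123, 124 and 137 CPM in saline. The second batch lay above every first-batch library (log2 difference 0.96, SE 0.16, edgeR adjusted p = 0.00596), with log2 change 0.40, SE 0.15, edgeR adjusted p = 0.0501 against saline. The latter passed without library 1, 6, 8 or saline 1 (edgeR adjusted p down to 0.0171). Irx3, a homeobox transcription factor, was at 21.8, 28.6, 46.6 and 45.0 CPM in the second batch, 19.4, 14, 15.2 and 13.3 CPM in the first and 31.3, 30.4, 31.7, 33.4 and 31.6 CPM in saline. Irx3 differed between the bleomycin batches by 1.2 on the log2 scale (SE 0.20, edgeR adjusted p = 0.00596). Por, the electron donor of cytochrome P450 enzymes, fell in the first batch (log2 change -0.99, SE 0.16, edgeR adjusted p = 2.62e-04) and not in the second (log2 change -0.13, SE 0.15, edgeR adjusted p = 0.566). Its difference (log2 difference 0.86, SE 0.16, edgeR adjusted p = 0.0131) was lost without library 2, 6 or 7 (edgeR adjusted p up to 0.0533).

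**Figure D3:**
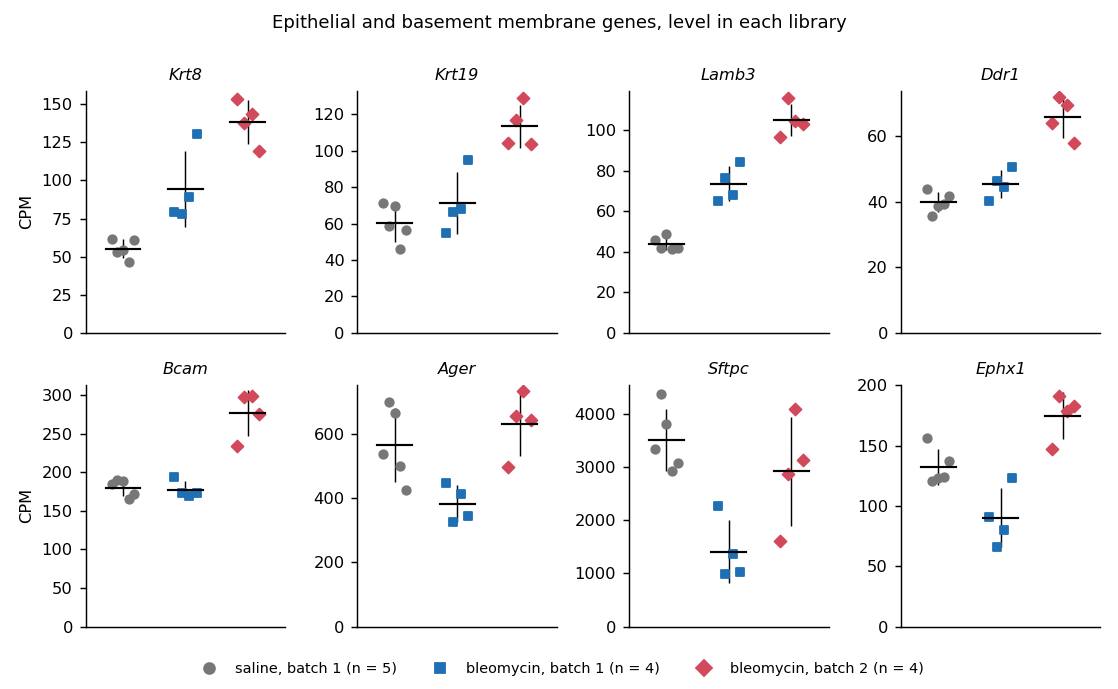
CPM in each library (vertical axes from 0) for 8 epithelial and basement membrane genes in saline, first-batch and second-batch bleomycin libraries, with a bar at each group mean. In Bcam, Ddr1, Lamb3 and Ephx1 all second-batch libraries lie above all first-batch libraries, while Sftpc and Krt8 overlap between the batches.

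Clock genes and immediate early genes differed between the bleomycin batches in many of their members. The circadian clock is a feedback loop in which the activators Clock, Arntl (also called Bmal1) and Npas2 bind E-box elements and switch on their own repressors, the Per, Cry and Nr1d genes, and a layer of output factors, Dbp, Tef and Hlf, that bind D-box elements. To show such elements in clock genes described here, matches are printed below from the RefSeq promoter table (GRCm38.p6), 5′ to 3′ on the gene's strand. The element is in capitals: the E-box CACGTG and the D-box TTATGTAA. The window of that table runs from 250 bases before to 50 bases after the transcription start. Only matches before the start are printed, from the first promoter of the gene that holds one. Both strands were searched.
Ciart, repressor of the loop, chr3:95882247-95882364, minus strand: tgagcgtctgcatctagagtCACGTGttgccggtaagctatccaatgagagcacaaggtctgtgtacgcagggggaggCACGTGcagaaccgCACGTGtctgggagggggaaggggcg
Bhlhe41, repressor of the loop, chr6:145865548-145865593, minus strand: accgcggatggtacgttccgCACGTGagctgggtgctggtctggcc
Tef, output factor, chr15:81802526-81802571, plus strand: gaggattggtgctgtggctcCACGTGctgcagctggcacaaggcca
Per3, member of the repressor family, chr4:151044796-151044890, minus strand: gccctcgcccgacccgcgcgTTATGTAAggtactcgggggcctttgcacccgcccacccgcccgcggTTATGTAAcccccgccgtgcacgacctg

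The E-box is found in 7.15% of the 32851 promoters, counted over the whole window, also after the start. For the D-box the share is 2.32%, counted with a looser pattern in which a single base may vary. The share of promoters with the exact D-box sequence printed above was not counted. Of the 12 clock genes that differed between the bleomycin batches, 2 hold the E-box in this window and 1 the D-box. A match is a description of the sequence, not a site of binding.

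Of 21 clock genes tested, 2 rose and 11 fell in the second batch (median -0.61), against 5 and 15 in the first (median -1.15). Between the bleomycin batches 8 were higher and 4 lower in the second, 12 of 21 where 0.547% and 1.13% of all tested genes were called higher and lower, and over the alternative settings 6 to 15 differed, 7 of them without bleomycin library 4 or 6. Among the activators, Arntl was at 15.3, 10.9, 8.71 and 12.2 CPM in the second batch, 33.2, 26.8, 40.0 and 23.2 CPM in the first and 5.75, 3.48, 4.89, 3.90 and 5.81 CPM in saline. All 3 groups were apart, with the second batch between saline and the first (log2 change 1.28, SE 0.21, edgeR adjusted p = 3.77e-04 against saline, and log2 difference -1.40, SE 0.22, edgeR adjusted p = 0.00372 against the first batch). Npas2 was at 2.99, 3.47, 5.16 and 1.76 CPM in the second batch, within the saline range of 1.46 to 5.03 CPM, and at 20.2, 13.4, 15.5 and 5.69 CPM in the first. Its difference (log2 difference -2.0, SE 0.43, edgeR adjusted p = 0.0258) was lost without library 1, 2, 4, 5, 6 or 7 (edgeR adjusted p up to 0.0875). Nfil3, a repressor that competes for D-boxes, was at 10.5, 4.90, 5.66 and 4.39 CPM in the second batch, 16.3, 32.6, 16.0 and 17.6 CPM in the first and 2.64, 2.55, 2.77, 3.02 and 3.24 CPM in saline. The direct test of Nfil3 between the batches gave -1.71 on the log2 scale (SE 0.28, edgeR adjusted p = 0.00596).

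Repressors and output factors moved the other way. Per3 was at 95.2, 129, 133 and 116 CPM in the second batch, 41.5, 45.2, 32.6 and 71.2 CPM in the first and 175, 167, 175, 186 and 203 CPM in saline. Again the second batch stood between the other 2 groups without overlap. For Per3 the difference between the bleomycin batches was 1.31 on the log2 scale (SE 0.19, edgeR adjusted p = 0.00342). Its fall against saline (log2 change -0.61, SE 0.18, edgeR adjusted p = 0.0182) lost its call without library 1, the lowest of its batch (edgeR adjusted p = 0.0621). Tef was at 151, 224, 225 and 179.7 CPM in the second batch, 67.9, 92.1, 70.9 and 124 CPM in the first and 356, 419, 405, 393 and 419 CPM in saline (log2 change -1.03, SE 0.17, edgeR adjusted p = 3.77e-04, and log2 difference 1.14, SE 0.17, edgeR adjusted p = 0.00373 between the batches). Bhlhe41 was at 32.9, 42.6, 40.7 and 45.1 CPM in the second batch, 22.9, 23.6, 21.7 and 22.5 CPM in the first and 66.7, 48.8, 54.8, 54.4 and 51.3 CPM in saline. Bhlhe41 differed between the bleomycin batches by 0.83 on the log2 scale (SE 0.12, edgeR adjusted p = 0.00261). Tef and Bhlhe41 had the same order of groups as Per3, with no overlap.

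Dbp spanned the widest range of the list. It was at 34.9, 55.0, 90.5 and 89.9 CPM in the second batch, 7.5, 7.60, 5.43 and 20.7 CPM in the first and 112, 109.9, 87.3, 87.9 and 98.3 CPM in saline. Libraries 3 and 4 of the second batch lay within the saline range and libraries 1 and 2 below it, and all 4 lay above every first-batch library. The direct test of Dbp between the batches gave 2.72 on the log2 scale (SE 0.43, edgeR adjusted p = 0.0115), a call lost when only the bleomycin groups were fitted (edgeR adjusted p = 0.0792). Against saline Dbp fell in the first batch (log2 change -3.27, SE 0.43, edgeR adjusted p = 2.51e-04) and did not pass in the second (log2 change -0.55, SE 0.38, edgeR adjusted p = 0.319). Nr1d2, which encodes the nuclear receptor REV-ERB beta, was at 93.2, 98.6, 114 and 118 CPM in the second batch and 70.0, 60.1, 45.8 and 73.2 CPM in the first, with saline at 186 to 233 CPM (log2 difference 0.77, SE 0.13, edgeR adjusted p = 0.00823). Ciart was at 5.98, 7.24, 8.96 and 9.08 CPM in the second batch and 9.80, 9.97, 13.2, 14.5 and 12.7 CPM in saline. Its fall of -0.62 (edgeR adjusted p = 0.0464) lost its call without library 1, 2, 4, 7, saline 3, saline 4 or saline 5 (edgeR adjusted p up to 0.137), and its difference from the first batch (log2 difference 0.85, SE 0.23, edgeR adjusted p = 0.0849) passed by DESeq2 and without library 8 (edgeR adjusted p = 0.029). Not every clock gene separated the batches: Rora, an activating nuclear receptor, gave -0.87 in the second batch and -0.81 in the first, with a difference of -0.05 (SE 0.09). The hour at which each lung was taken is not given in the sources used here, and its part in these differences was not tested.

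Immediate early genes encode transcription factors and feedback regulators that are switched on within minutes of a stimulus, many through serum response elements (the CArG box) or cyclic AMP response elements. A gene with each element is shown, from the same table and in the same way. Zfp36 is from the immediate early list and Errfi1 from the glucocorticoid list.
Zfp36, an RNA-binding protein that destabilises cytokine mRNAs, chr7:28379257-28379306, minus strand, CArG box in capitals: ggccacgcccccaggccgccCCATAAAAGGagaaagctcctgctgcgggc
Errfi1, a feedback inhibitor of the EGF receptor from the glucocorticoid list, chr4:150854999-150855046, plus strand, cyclic AMP response element TGACGTCA in capitals: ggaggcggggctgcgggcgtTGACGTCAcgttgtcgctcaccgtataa
These elements are found in 1.63% and 1.79% of all promoters, counted over the whole window.

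Of 27 immediate early genes, 5 rose and 2 fell in the second batch (median 0.01), whereas 18 rose and none fell in the first (median 1.2). Between the bleomycin batches 10 were lower in the second and none higher, and 5 to 16 differed over the alternative settings, 6 of them without bleomycin library 3. Of all tested genes, 1.13% were called lower and 0.547% higher in the second batch than in the first. Fos, part of the AP-1 transcription factor, was at 21.6, 25.8, 13.4 and 17.3 CPM in the second batch, 59.0, 82.2, 43.9 and 38.9 CPM in the first and 16.1, 15.1, 20.6, 22.7 and 13.5 CPM in saline. The second batch overlapped saline and lay below every first-batch library (log2 change 0.15, SE 0.24, edgeR adjusted p = 0.698 against saline, and log2 difference -1.52, SE 0.26, edgeR adjusted p = 0.00900 between the batches). Zfp36 was at 42.0, 47.3, 36.2 and 38.7 CPM in the second batch, 98.3, 141, 74.2 and 65.7 CPM in the first and 39.8, 33.9, 46.3, 43.1 and 40.2 CPM in saline. For Zfp36 the difference between the bleomycin batches was -1.21 on the log2 scale (SE 0.20, edgeR adjusted p = 0.00629). Fosl2, another AP-1 subunit, was at 164, 134, 112 and 107 CPM in the second batch, 232, 299.9, 275 and 194 CPM in the first and 98.9, 112, 107, 122 and 105 CPM in saline. Fosl2 differed between the bleomycin batches by -0.96 on the log2 scale (SE 0.14, edgeR adjusted p = 0.00342). Both repeated the arrangement of Fos.

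A pair of Krüppel-like factors of the list went below saline in the second batch. Klf6 was at 152, 129, 136 and 119 CPM in the second batch, 238, 246, 196 and 174 CPM in the first and 209, 248, 212, 209.7 and 205 CPM in saline. It fell in the second batch (log2 change -0.70, SE 0.11, edgeR adjusted p = 2.75e-04) and not in the first (log2 change -0.02, SE 0.11, edgeR adjusted p = 0.901), with log2 difference -0.67, SE 0.12, edgeR adjusted p = 0.00741 between the batches. Klf4 was at 98.3, 94.3, 85.1 and 83.8 CPM in the second batch and 195, 141, 136 and 134 CPM in the first, with saline at 135, 127, 157, 196 and 198 CPM (log2 change -0.85, SE 0.15, edgeR adjusted p = 5.92e-04). Its difference between the batches (log2 difference -0.74, SE 0.15, edgeR adjusted p = 0.0203) was lost without library 2, 3 or 4 (edgeR adjusted p up to 0.0806). Junb, in contrast, rose in both batches (1.14 and 1.66), at 71.9, 52.9, 46.7 and 47.9 CPM in the second batch against 26.5, 23.0, 25, 24.5 and 24.9 CPM in saline.

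Of 19 glucocorticoid-responsive genes, 2 rose and 8 fell in the second batch (median -0.42), while 7 rose and 5 fell in the first (median 0.47), and 4 were lower in the second batch than in the first. That count of 4 was 0 without bleomycin library 3 or 4 and 1 without library 6. Of all tested genes, 1.13% were lower in the second batch than in the first. Against saline, 15.7% rose and 13.2% fell in the second batch, and 17.5% and 13.4% in the first. The list shares Dusp1 with the immediate early list and Per1 with the clock list. Errfi1 was at 84.4, 83.7, 71.6 and 60.5 CPM in the second batch, 183, 261, 144 and 108 CPM in the first and 103, 123, 148, 122 and 134 CPM in saline. The second batch lay below the first without overlap (log2 difference -1.21, SE 0.22, edgeR adjusted p = 0.0146, a call lost without library 3 or 4 (edgeR adjusted p up to 0.0731)), and below saline (log2 change -0.75, SE 0.21, edgeR adjusted p = 0.0184, lost without library 4 (edgeR adjusted p up to 0.0592)). Against saline its first-batch change (log2 change 0.47, SE 0.21, edgeR adjusted p = 0.106) passed without library 8 (edgeR adjusted p = 0.0212). Klf9, a direct target of the glucocorticoid receptor, fell in both batches, at 75.7, 119.6, 116 and 91.5 CPM in the second batch against 234, 309, 319.7, 309 and 261 CPM in saline. That is a change of -1.51 on the log2 scale (SE 0.14, edgeR adjusted p = 3.54e-06). Tsc22d3, the glucocorticoid-induced leucine zipper, was at 78.4, 123, 86.5 and 61.1 CPM in the second batch and at 103, 286, 218, 216 and 235 CPM in saline, where library 1 lay far below the others and within the second-batch range (log2 change -1.27, SE 0.26, edgeR adjusted p = 0.00342).

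The naming rule also picked genes outside these 3 lists as higher in the first batch only. Adm, the vasodilator adrenomedullin, was at 9.13, 5.30, 4.56 and 3.81 CPM in the second batch, 17.3, 26.4, 12.2 and 14.1 CPM in the first and 6.90, 5.57, 5.11, 8.48 and 6.47 CPM in saline. The direct test of Adm between the batches gave -1.63 on the log2 scale (SE 0.29, edgeR adjusted p = 0.00929). Apold1, an early response gene of endothelium, was at 3.65, 5.92, 2.7 and 2.93 CPM in the second batch, 23.5, 21.2, 14.6 and 8.00 CPM in the first and 3.03, 2.55, 2.41, 4.53 and 1.47 CPM in saline. For Apold1 the difference between the bleomycin batches was -2.14 on the log2 scale (SE 0.38, edgeR adjusted p = 0.00929). In both genes the second batch overlapped saline and lay below every first-batch library, and neither difference passed by limma-voom (limma-voom adjusted p = 0.0696 for Adm and 0.13 for Apold1).

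**Figure D4:**
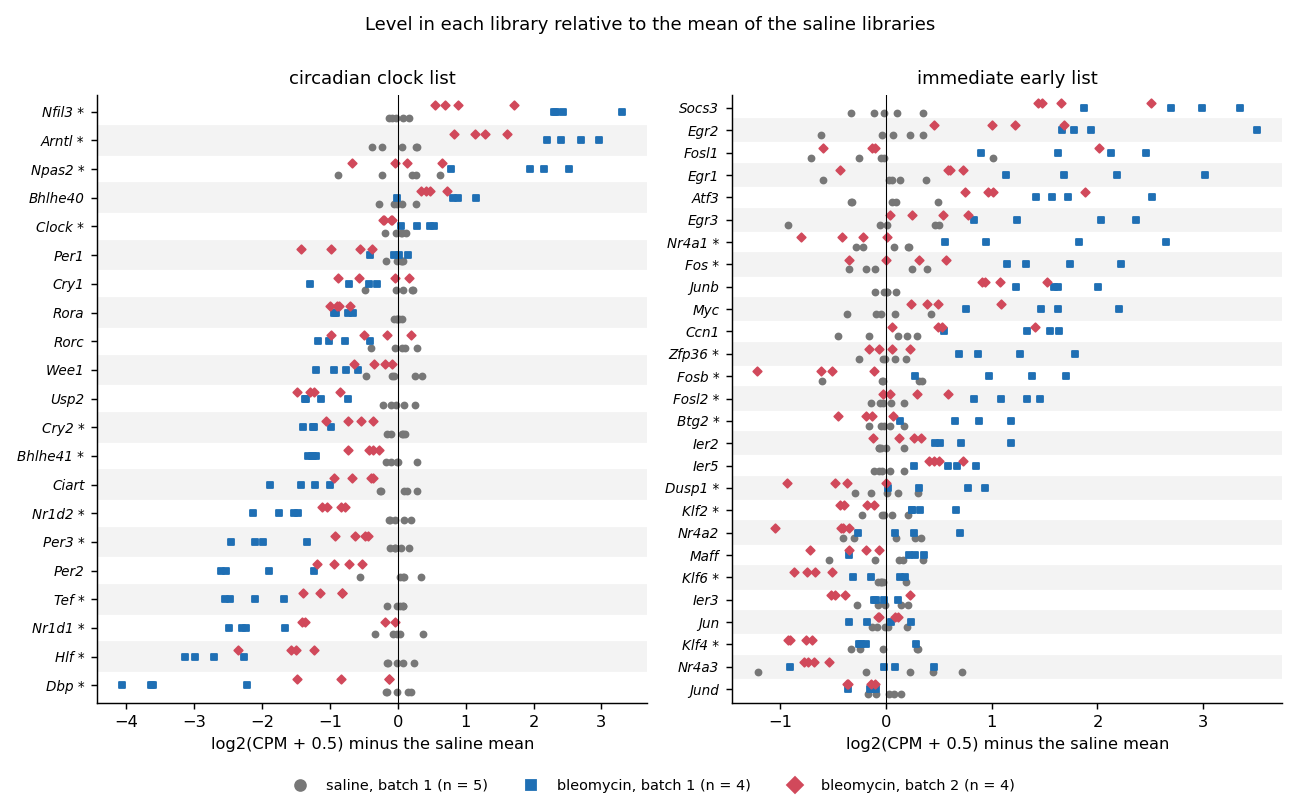
Level in each library as log2(CPM + 0.5) minus the mean of the saline libraries, for the tested members of the circadian clock list (left) and the immediate early list (right). In the clock list the second-batch points of Arntl, Per3, Tef and Bhlhe41 lie between saline and the first batch, and in the immediate early list the second-batch points of Fos, Fosl2 and Zfp36 overlap saline while the first-batch points lie above it.

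Among protein-coding genes, 2 changed in opposite directions in the batches. Myh14, a non-muscle myosin heavy chain of epithelium, was at 387, 624, 652 and 524 CPM in the second batch, 304, 206, 264 and 322 CPM in the first and 409, 355, 493, 369.5 and 389 CPM in saline. The difference between the batches (log2 difference 1.00, SE 0.17, edgeR adjusted p = 0.00668) held without each library in turn, but the rise against saline (log2 change 0.44, SE 0.16, edgeR adjusted p = 0.0453) was lost without library 2, 3, 4, 7, 8, saline 1, saline 2, saline 4 or saline 5 (edgeR adjusted p up to 0.195, and 0.0636 without library 8), and library 1 lay within the saline range. The first-batch fall (log2 change -0.56, SE 0.16, edgeR adjusted p = 0.0142) was lost without library 6 (edgeR adjusted p up to 0.0501). Cop1, a ubiquitin ligase, was at 62.3, 68.1, 68.4 and 64.1 CPM in the second batch, 87.3, 97.7, 97.9 and 80.8 CPM in the first and 78.0, 72.0, 76.9, 80.1 and 82.1 CPM in saline. Cop1 differed between the bleomycin batches by -0.47 on the log2 scale (SE 0.09, edgeR adjusted p = 0.0106). Its fall against saline (edgeR adjusted p = 0.0358) was lost without library 1, 2, 4, saline 1, saline 3 or saline 5 (edgeR adjusted p up to 0.108), and its first-batch rise (edgeR adjusted p = 0.0448) was lost without library 2, 3, 4, 6, 7, saline 1, saline 2, saline 3 or saline 4 (edgeR adjusted p up to 0.202). The other 24 opposite genes were not protein-coding, and 17 of them were small nuclear RNAs.

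Genes that are not protein-coding were prominent among those that differed between the batches. Of the 343 genes that differed, 145 were protein-coding, 61 higher and 84 lower in the second batch, and 77 were processed pseudogenes, intronless copies of spliced transcripts, of which 75 were lower. Of 1043 processed pseudogenes tested, 18 rose and 306 fell against saline in the second batch, and 23 rose and 101 fell in the first. Their share of all counts was 0.15% to 0.165% in the second batch, 0.204% to 0.271% in the first and 0.266% to 0.361% in saline. The second batch thus lay below both other groups, which overlapped with each other. Of the 109 genes changed in the second batch only, 48 were processed pseudogenes and 38 protein-coding. Rps13-ps1, a ribosomal protein pseudogene, was at 0, 0, 0.169 and 0 CPM in the second batch, 2.31, 2.57, 3.39 and 3.41 CPM in the first and 7.67, 9.05, 6.71, 5.28 and 2.94 CPM in saline. Rps27rt, an intronless copy of a ribosomal protein gene, was at 2.32, 1.43, 1.69 and 2.05 CPM in the second batch, 7.17, 8.61, 7.16 and 3.94 CPM in the first and 6.90, 6.96, 5.04, 5.15 and 6.62 CPM in saline. The direct test of Rps27rt between the batches gave -1.86 on the log2 scale (SE 0.28, edgeR adjusted p = 0.00343). Such copies share reads with their parent genes, so their values depend on how reads with several matches were counted, which is not given in the sources used here.

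Short structural RNAs were lower in both batches. Of 172 small nucleolar RNAs 127 fell in the second batch and 143 in the first, and none rose. Of 381 small nuclear RNAs, which include many near-identical copies of spliceosomal RNA genes, 19 rose and 193 fell in the second batch and 1 rose and 303 fell in the first, with 31 higher and 6 lower in the second batch than in the first. Mitochondrial tRNAs took 0.0258% to 0.0818% of counts in the second batch and 0.0267% to 0.116% in the first, against 0.213% to 1.96% in saline, and 18 of 19 fell in the second batch.

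Of the 13 mitochondrial protein-coding RNAs, which encode subunits of the respiratory chain and ATP synthase, 10 fell in the second batch and 5 in the first, and 5 were lower in the second batch than in the first. The 5 were mt-Co2, mt-Co3, mt-Atp6, mt-Atp8 and mt-Nd4l. mt-Co2, a subunit of cytochrome c oxidase, was at 0.498, 0.816, 0.338 and 0.879 CPM in the second batch, 37.8, 14.2, 28 and 25.2 CPM in the first and 111, 141, 59.9, 105 and 37.7 CPM in saline (log2 change -7.19, SE 0.59, edgeR adjusted p = 1.2e-05, and log2 difference -5.40, SE 0.60, edgeR adjusted p = 0.00192 between the batches). mt-Atp6, a subunit of ATP synthase, was at 0.498, 0.816, 0.930 and 1.03 CPM in the second batch, 38.9, 18.1, 30.2 and 24.3 CPM in the first and 122, 134, 64.5, 111 and 37.1 CPM in saline. For mt-Atp6 the difference between the bleomycin batches was -5.05 on the log2 scale (SE 0.52, edgeR adjusted p = 0.00111). In both genes the second batch lay far below every other library, at about 1 CPM or less, and the first batch reached up only to the lowest saline library. The fall of 10 of 13 became 6 of 13 without bleomycin library 1 or 4, and the difference in mt-Atp8 was lost without library 3 (edgeR adjusted p = 0.0649). mt-Co1, from the same genome, was at 1686, 2597, 1970.4 and 1869 CPM in the second batch, 6628, 2999, 2355 and 1728 CPM in the first and 4225, 3338, 2795, 4634 and 2831 CPM in saline and did not pass in either batch (log2 change -0.81, SE 0.35, edgeR adjusted p = 0.102 in the second), though its second-batch fall passed without bleomycin library 5 (edgeR adjusted p = 0.00747). By limma-voom none of the 5 differences between the batches passed. Ttyh1, a nuclear gene for a chloride channel, had the same arrangement, at 0.664, 0.816, 2.03 and 0.586 CPM in the second batch, 27.4, 34.0, 68.2 and 20.8 CPM in the first and 252, 526, 197, 227 and 84.1 CPM in saline (log2 change -7.83, SE 0.78, edgeR adjusted p = 5.89e-05), and its difference between the batches also failed by limma-voom. Near-identical stretches of mitochondrial sequence lie in the nuclear genome, so these values are uncertain in the same way as those of the pseudogenes.

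**Figure D5:**
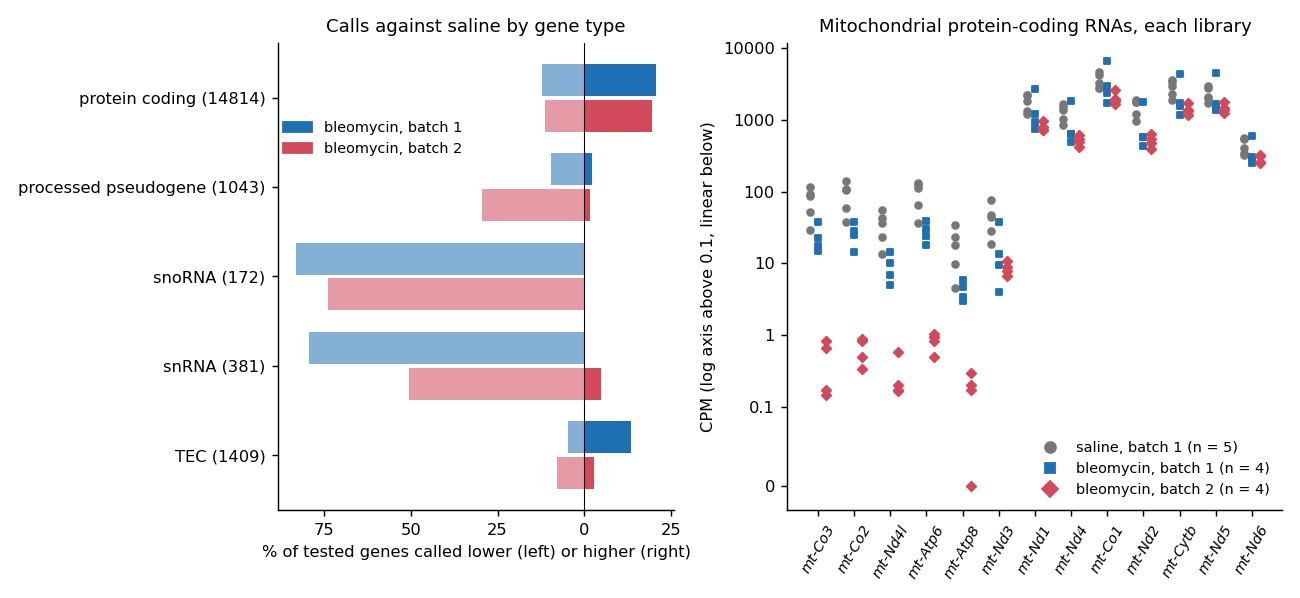
Left: share of the tested genes of each type (number in brackets) called lower (pale bars, left of 0) or higher (dark bars, right of 0) than saline, for each bleomycin batch; TEC is the annotation's class of transcribed regions that await experimental testing. Right: CPM of the 13 mitochondrial protein-coding RNAs in each library on a log axis that is linear below 0.1, where mt-Co3, mt-Co2, mt-Nd4l, mt-Atp6 and mt-Atp8 of the second batch lie near or below 1 CPM and the other 8 do not.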

How the data were processed

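The deposited counts are whole reads per gene symbol for 54513 genes in 13 libraries. Per the submitters' processing notes, the build was mm39 and the authors' tools included featureCounts 2.0.3, STAR 2.7.10b, cutadapt 4.4 and DESeq2 1.42.1. The annotation release, the strand setting and the handling of reads with several matches were not given in the sources used here. Groups came from the treatment and batch labels. The title of bleomycin library 8 conflicts with its treatment label, which was followed.

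From the deposited counts, genes kept by edgeR's filterByExpr over the 3 groups (20468) were scaled by TMM and fitted in one model of all 13 libraries (edgeR 4.0.16, quasi-likelihood with robust spread, R 4.3.3), so that the groups share one estimate of the spread (common biological coefficient of variation 0.306). The contrasts were second batch against saline, first batch against saline, and second against first batch. P-values were adjusted by Benjamini-Hochberg over all genes of a contrast, and an adjusted p under 0.05 is a call. SE is the log2 change divided by the square root of the F statistic. Gene types and lengths came from GENCODE M21 by symbol (97% of tested genes matched), an annotation of another build than the counts. The counts and shares by gene type and the fit of protein-coding genes only rest on these types. Total counts of 6337147 to 28885129 per library set the precision, and no interval is given beyond the SE. Of counts from 1 to 10, 78.4% to 86.1% were even in each library, so single counts are not independent reads of separate molecules.

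The members, the 56 gene lists and the naming rule were chosen with earlier results of these data known. Named were the largest changes that were shared, of one batch only or opposite, at 5 CPM or more and without overlap where the class allows it, up to 5 members per list by p, and 18 genes set by name. Predicted models and short RNAs were left out of naming, and a gene that the rule picked is not reported here. Alternatives were RLE scaling, TMM without short RNA classes, DESeq2 1.42.0, limma-voom 3.58.1, no or a stricter filter (1 CPM in 4 libraries), a fit of only the groups of each contrast, thinning to the smallest total, a replicate block, each library left out, and, added after seeing the data, protein-coding genes only. Replicates were checked for duplicates: a chi-square test of the counts gave 10.1 to 266.7 per degree of freedom over 22 pairs within groups, so no pair agreed within sampling noise. The highest values, 266.7, 257.0 and 161.8, were those of bleomycin library 8 with libraries 5, 6 and 7. The fitting scripts were tested on simulated data.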

Additional observations from a re-analysis of the deposited data

Results flagged for a closer look

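The bleomycin batches differed, by the direct test between them, in 59 of the 111 genes examined here, a share that the naming rule sets, since it picks genes for this difference. Of the 59 calls, 29 were kept without each library in turn, and 25 were lost by limma-voom and 25 when only the bleomycin groups were fitted. Lost most often of 13 omissions were Ltbp3 and Epcam (11 each), Cry2 (10), Adamts1 and Dusp1 (9 each) and Nr1d1 and Krt19 (8 each). Without library 8 those of Adamts1 (edgeR adjusted p = 0.0537) and Epcam (edgeR adjusted p = 0.0539) were lost. Lower in the second batch than in the first, as log2 differences, were mt-Co3 (-5.72), Rps13-ps1 (-5.52), mt-Co2 (-5.40), mt-Nd4l (-5.07), Ttyh1 (-5.05), mt-Atp6 (-5.05) and mt-Atp8 (-4.54), then Apold1 (-2.14), Nr4a1 (-2.09), Npas2 (-2.0), C4a (-1.99), Fosb (-1.88), Rps27rt (-1.86), Nfil3 (-1.71), Adm (-1.63), Fos (-1.52), Arntl (-1.40), Errfi1 (-1.21), Zfp36 (-1.21), Noct (-1.13) and Cebpd (-1.01). Smaller differences in the same direction were those of Dusp1 (-0.97), Fosl2 (-0.96), Btg2 (-0.93), Spry4 (-0.83), Klf4 (-0.74), Sgk1 (-0.73), Klf6 (-0.67), Klf2 (-0.66), Adamts1 (-0.62), Clock (-0.50) and Cop1 (-0.47). Higher in the second batch were Dbp (2.72), Nr1d1 (1.53), Per3 (1.31), Irx3 (1.2), Hlf (1.17), Tef (1.14), Myh14 (1.00), Ephx1 (0.96), Mtcl1 (0.94), Matn4 (0.91), Grb7 (0.91), Por (0.86), Bhlhe41 (0.83), Nr1d2 (0.77), Ager (0.72), Krt19 (0.67), Bcam (0.64), St14 (0.58), Cry2 (0.56), Ddr1 (0.53), Epcam (0.53), Ltbp4 (0.52), Lamb3 (0.51), Nbl1 (0.51), Fam234a (0.42), Ltbp3 (0.40) and Agrn (0.40). C4a has a near-identical neighbour, C4b, with which it can share reads.

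One library stood far from the rest of its group in 23 of the 333 gene and group pairs examined. The rule marks about 1 in 20 only for independent, normally spread values. CPM of related genes need not be so, and no excess can be read from the count. In Rps13-ps1 of the second batch and Cd5l of saline the rest of the group was at 0 CPM. Bleomycin library 1 was the high library of the second batch in 6 of the 23 pairs: Fn1 (8078 CPM), Mmp12 (193 CPM), Itgax (128.9 CPM), C1qc (88.8 CPM), Saa3 (82.9 CPM) and Timp1 (55.3 CPM). In library 3 of the same batch Tg (1551 CPM), Slc26a4 (14.2 CPM), Ttyh1 (2.03 CPM) and Rps13-ps1 (0.169 CPM) were high, and in library 4 mt-Nd4l (0.586 CPM). In the first batch library 5 was high in Bcam (194.5 CPM), Klf4 (195 CPM), Klf2 (116 CPM) and Matn4 (40.5 CPM), and library 6 in Nfil3 (32.6 CPM). Library 8 was high in Ltbp3 (225 CPM), Dbp (20.7 CPM) and Cd5l (17.8 CPM) and low in Hopx (74.6 CPM). In saline, library 1 was high in Tg (688 CPM), library 2 in Klf6 (248 CPM) and library 3 in Cd5l (0.292 CPM).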

How the results depend on the processing

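The 5911 genes called in the second batch became 4223 to 6471 under the other scalings, filters, fits and tools, and 4711 to 6350 with each library left out, within 1.5 times of the main count in each case. The 6319 of the first batch (5123 to 6546 with each library left out) and the 4175 shared genes (3430 to 4451) also stayed within it, and no change that passed the test and is named in the text reversed, while some near 0 turned sign, such as that of Fos in the second batch (-0.03 to 0.25). The counts that rest on the difference between the bleomycin batches moved by more. Genes that differed between the bleomycin batches, were changed in the second batch only, and were changed in the first batch only numbered 715, 191 and 241 by DESeq2, 106, 24 and 42 by limma-voom, 160, 32 and 51 when only the groups of each contrast were fitted, 179, 56 and 60 with libraries thinned to the smallest total, and 79, 21 and 34 with protein-coding genes only, where 2 genes were opposite. With no filter on low counts 170 were changed in the second batch only. With each library left out these counts ran from 148 to 1093, from 40 to 456 and from 39 to 320, and opposite genes from 16 to 37. Thinning and leaving out libraries reduce reads and samples by construction; otherwise the cause was not tested. Without adjustment 8090, 8490 and 2995 genes had p under 0.05 in the 3 contrasts.

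Saline and the second batch share replicate numbers 1 to 4, but deviations of same-numbered libraries correlated at -0.16, -0.43, -0.06 and -0.17, so the numbers do not pair them. With a replicate block the second-batch count was 4586. The main limits are that batch and bleomycin coincide in the second batch and that the label of library 8 conflicts with its title. A further limit is depth, since the second batch had the lowest median total, though its totals overlapped those of saline. At this depth a gene near 0 in the second batch was not shown to be absent.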

Other observations

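Other gene groups gave these counts. Of all tested genes, 15.7% rose and 13.2% fell in the second batch, and 17.5% and 13.4% in the first. Of 28 cholesterol and fatty acid synthesis genes, 1 rose and 10 fell in the second batch and in the first, with second-batch counts of 1 and 4 without bleomycin library 4. Of 27 antioxidant and xenobiotic genes, 3 rose and 13 fell in each batch. Of 24 endoplasmic reticulum stress genes, 15 rose and 3 fell in the second batch, against 13 and 3 in the first. Of 18 alveolar fibroblast genes, 4 rose and 6 fell in the second batch, against 4 and 9 in the first, and of 22 large-vessel and systemic endothelium genes, 9 rose and 5 fell, against 11 and 6. Of 108 immunoglobulin variable segments tested, 72 rose in the second batch and 73 in the first, and none fell. None differed between the bleomycin batches, where only 0.547% of all tested genes were called higher and 1.13% lower in the second batch. Near-identical segments can share reads.

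Genes of other tissues varied between single libraries of every group. Summed skeletal muscle genes ran from 43.9 to 1705 CPM in the second batch and from 27.3 to 5776 CPM in saline, and summed squamous epithelium genes from 9.0 to 1615 CPM and from 2.73 to 3369 CPM. None of the 18 skeletal muscle and 11 squamous genes tested passed in the second batch.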
